A study of Mus musculus with 6 samples.

Results

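Cd4, the 1 gene described here, encodes the coreceptor of helper T cells. It was chosen by name and studied over 32 kb of mouse chromosome 6, mm9 chr6:124810001-124842000. The gene lies on the minus strand with its promoter near 124838000, so lower coordinates lie further into the gene. The locus was divided into 64 bins of 500 bp, out of 4660591 bins of that size with at least 1 read in the genome. The comparisons are of histone marks in mature CD4+ T cells and mature CD8+ T cells from the thymus of C57BL/6 mice, both without any further treatment or mutation in the labels. Mononucleosomes were made with micrococcal nuclease and pulled down with polyclonal rabbit antibodies to H3K4me3 or H3K36me3, and each cell type had an input with no antibody. This gives 6 libraries, 1 per mark or input and cell type. There are no replicates, and p-values are therefore not reported.

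The CD4 protein binds MHC class II molecules on antigen-presenting cells and brings the kinase Lck to the T cell receptor. Both coreceptors are made by immature thymocytes, and helper cells keep Cd4 while cytotoxic cells shut it off. In mouse that repression needs a silencer in the first intron of the gene, which is bound by Runx proteins, Runx3 in CD8 cells. H3K4me3 marks nucleosomes at and just after the start of active genes. H3K36me3 is laid down behind elongating RNA polymerase II and marks the bodies of transcribed genes. The labels of the libraries are themselves names of coreceptors, so Cd4 is the gene that defines one of the 2 labels. The other lineage genes could not be placed for a check of the labels, because no mm9 annotation was used here.

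The precipitated libraries held 10728764 (CD4) and 12114294 (CD8) H3K4me3 reads on chromosomes 1 to 19, X and Y, and 6730337 (CD4) and 6758121 (CD8) H3K36me3 reads. The inputs held 10171739 (CD4) and 9976535 (CD8) reads. The background far from enriched stretches was 19.2% of the input RPM (reads scaled to library size) for CD4 H3K4me3 and 1.20% for CD8 H3K4me3. For H3K36me3 it was 31.7% (CD4) and 32.5% (CD8). Only 54.4% of the CD4 and 31.4% of the CD8 H3K4me3 reads had distinct positions, against 91.2% (CD4) and 91.8% (CD8) for H3K36me3.

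H3K4me3 covered the stretch around the Cd4 promoter position and the 3 kb inward of it in CD4 cells and was nearly missing there in CD8 cells. The promoter, taken as 1 kb on each side of 124838000 (chr6:124837001-124839000), held 882 CD4 reads and 5 CD8 reads. That is 82.2 RPM in CD4 cells, against 0.413 RPM in CD8 cells. The CD4 over CD8 ratio was 260.3-fold, with a 95% counting interval of 111 to 804. With 1 read kept per position it was 93.5-fold (39.7 to 289), from 416 CD4 and 5 CD8 positions. All ratios between cell types are centred on the median ratio of bins enriched in both cell types, which lies 0.39 (log2) from the ratio of total reads for H3K4me3 and 0.05 for H3K36me3. Intervals cover counting error only, because each group is 1 library. They also treat reads as independent. Without molecular identifiers several reads can stem from 1 molecule, so the intervals on all reads can be too narrow. A smaller share of marked cells and less mark per cell cannot be told apart in such libraries.

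The silencer side was taken as 1 to 3 kb into the gene (chr6:124835001-124837000), a round distance on the side of the first-intron silencer, for which no coordinates were used. It held 1136 CD4 and 10 CD8 reads of H3K4me3, or 106 RPM in CD4 cells against 0.825 RPM in CD8 cells. The ratio was 168-fold (90.8 to 350.5), and 59.6-fold (32.1 to 125) with 1 read kept per position. Which of the stretches carried more H3K4me3 per kb in CD4 cells depended on the borders. With the borders above, the silencer side had 1.29 times the reads per kb of the promoter (1.18 to 1.41). With the promoter taken as 500 bp on each side and the silencer side as 0.5 to 3 kb, a check added after the values were seen, it had 0.826 times (0.752 to 0.908), with 1354 CD4 reads on the silencer side and 656 at the promoter. The CD4 over CD8 ratio of the silencer side was 0.644 times that of the promoter (0.172 to 2.08), so the 15 CD8 reads do not separate the stretches.

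**Figure D1:**
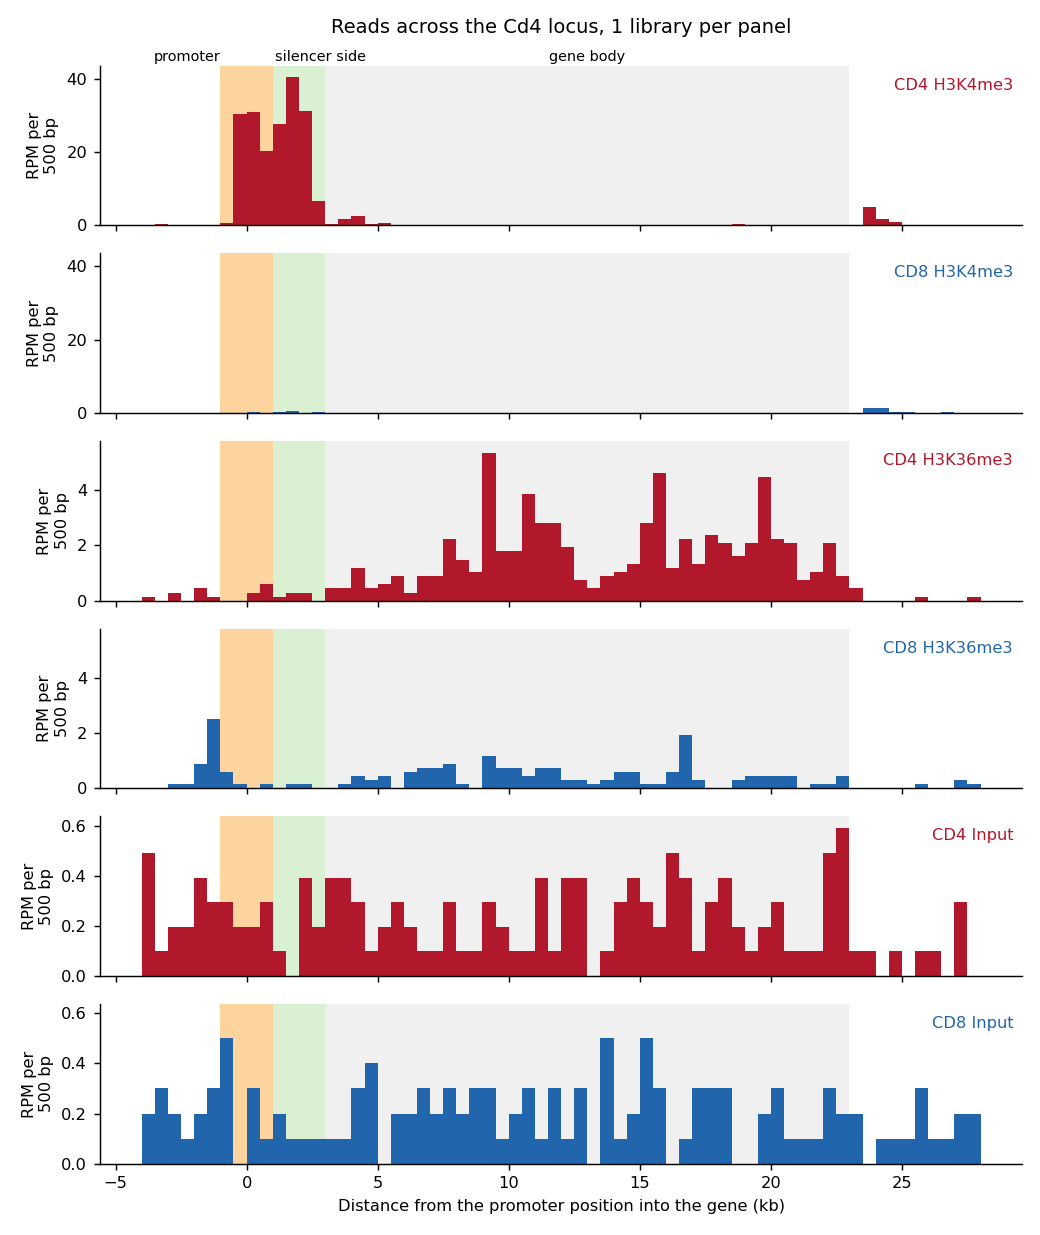
RPM in 500 bp bins (y axis) against distance into the gene from the promoter position in kb (x axis), 1 panel per library, with the same y range for CD4 and CD8 of a mark. CD4 H3K4me3 stands over the promoter and silencer side, CD4 H3K36me3 over the gene body from about 4 kb on, and CD8 H3K36me3 is low in the body with a small peak just upstream of the promoter.

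Against the input, the CD4 promoter was 83.6-fold higher in H3K4me3 (45.3 to 175) and the CD4 silencer side 154-fold (74.4 to 384). The CD8 promoter was at 0.458 times its input (0.120 to 1.52) and the CD8 silencer side at 1.65 times (0.513 to 6.14). Within 500 bp of the promoter position the values were 155-fold in CD4 cells (60.4 to 572) and 1.098-fold in CD8 cells (0.186 to 7.50), so the order of the CD4 promoter and silencer side over input was not settled. With 1 read kept per position the CD8 promoter was at 1.42 times its input (0.374 to 4.72). The CD8 reads of both stretches lay above the background of that library. The background would give 0.131 reads in the CD8 promoter section and 0.0729 reads on the silencer side, where 5 and 10 reads were found. The surroundings were above background too. The 10 kb beyond the upstream end of the locus held 32 CD4 H3K4me3 reads where 8.29 were expected from background, and 7 CD8 reads where 0.671 were expected. The 10 kb beyond the downstream end held 45 CD4 reads where 7.07 were expected, and 32 CD8 reads where 0.423 were expected. That flank includes an enriched bin, chr6:124807001-124807500, with 24 CD4 and 14 CD8 reads.

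By bin, 10 of the 64 bins of 500 bp were enriched for H3K4me3 in CD4 cells, against 0 in CD8 cells. A bin counted as enriched with at least 20 reads and at least 4 times the input RPM, input set to at least 3 reads. Over the genome 0.98% of bins passed in CD4 cells, against 0.888% in CD8 cells. Of the 10 bins, 9 were higher in CD4 cells by at least 2-fold with an interval at alpha 0.001 above 1, and 0 were higher in CD8 cells. Of these, 8 lay between 0.5 kb upstream and 4.5 kb into the gene, and 1 lay at 23.5 to 24 kb. The background share of this call is high, 27.8% of 49544 tested bins for CD4 and 9.85% for CD8. With scaling to total reads it was 20.9% for CD4 and 21.3% for CD8, and the same number of Cd4 bins, 9, was called. All 10 tested Cd4 bins passed the filter in CD4 cells and 0 in CD8 cells. That favours a call higher in CD4 cells and all but excludes one for CD8. In the genome 37549 of the 49544 tested bins were enriched in both cell types, so the genome shares are not a like reference.

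The strongest bin was not at the promoter position but 1.5 to 2 kb inward of it. The annotated start site was not used. It held 433 CD4 reads and 6 CD8 reads, a 106-fold difference (48.5 to 292). The next bin inward, 2 to 2.5 kb into the gene, had 335 CD4 reads and 0 CD8 reads. With CD8 set to a floor of 3 reads per library it was 165-fold higher in CD4 cells, with an interval from the floored counts of 55.9 to 803. The first 500 bp inward of the promoter position had 331 CD4 reads and 4 CD8 reads, a 122-fold difference (47.2 to 451). The bin that ends at the promoter position on the upstream side had 325 CD4 reads and 0 CD8 reads. By the same floor it was 159.8-fold higher in CD4 cells (54.2 to 779). The largest fold with CD8 reads present, 218-fold (59.9 to 1812), was at 1 to 1.5 kb, with 296 CD4 reads and 2 CD8 reads.

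A dip lay between the stretches. The bin from 0.5 to 1 kb into the gene had 218 CD4 reads and 0 CD8 reads, fewer in CD4 cells than either neighbour. In bins of 100 bp the CD4 maxima were at 1.9 to 2 kb into the gene, with 164 reads at 52 distinct positions, and in the last 100 bp before the promoter position, with 157 reads at 49 positions. From 0.7 to 0.8 kb only 17 CD4 reads were counted. The upstream edge was sharp. The bin from 0.2 to 0.1 kb upstream held 127 CD4 reads and the adjacent one further upstream 18. The edge inside the gene was more gradual. Of the CD4 H3K4me3 reads in the locus, 25% lay less than 0.24 kb into the gene or upstream of it, and 75% less than 2.01 kb into it.

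**Figure D2:**
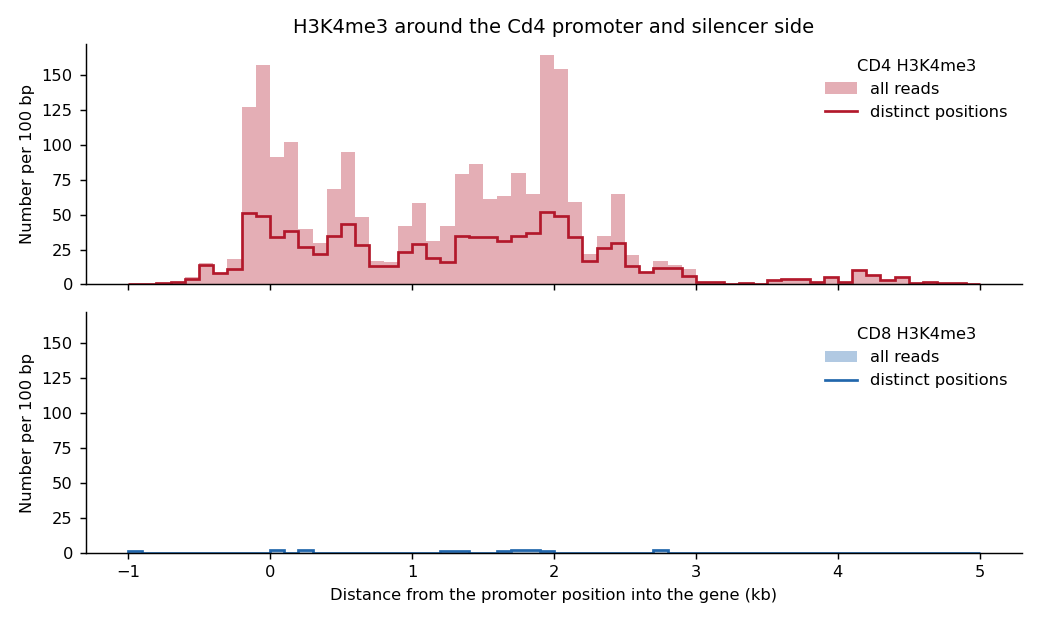
H3K4me3 reads (filled) and distinct read positions (line) per 100 bp (y axis) against distance into the gene in kb (x axis), CD4 above CD8 on the same scale. CD4 shows maxima at the promoter position and near 2 kb into the gene in both counts, and CD8 never exceeds 2 reads per 100 bp.

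The run of enriched bins that covers the promoter and silencer side in CD4 cells, chr6:124835001-124838500, was 3500 bp wide. Of 17016 such runs in the CD4 library, 569 were as wide or wider, which is 3.34%, and the median width was 1000 bp. It held 2010 CD4 reads and 14 CD8 reads. A further CD4 bin of 27 reads, with 0 CD8 reads, was enriched at 4 to 4.5 kb into the gene. With CD8 at the floor it was 13.3-fold higher in CD4 cells, with an interval from the floored counts of 4.09 to 68.4. Among all 24614 tested windows of 2 kb, of which 24.5% were called higher in CD4 cells, against 5.41% in CD8 cells, 8 had a CD4 over CD8 ratio at or above that of the Cd4 promoter, counting Cd4 itself. For the silencer side 15 windows did so. The promoter, with 5 CD8 reads, and the silencer side, with 10 CD8 reads, met the minimum of reads in CD4 cells only. That favours a high CD4 over CD8 ratio, so these ranks are not evidence separate from the read counts. In level, 0.184% of windows with reads had at least as many CD4 H3K4me3 reads as the promoter and 0.0922% as many as the silencer side. For CD8 H3K4me3 reads these shares were 2.76% and 2.26%.

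H3K4me3 faded within the gene body, taken as 3 to 23 kb into the gene (chr6:124815001-124835000). The body held 88 CD4 reads and 8 CD8 reads, a 16.2-fold difference (7.89 to 38.8), or 7.38-fold (3.02 to 21.7) from 5 to 20 kb. Background was not removed from these ratios, and it was higher in the CD4 library. It would give 19.8 CD4 and 1.20 CD8 reads in the body, and 13.9 CD4 and 0.905 CD8 reads from 5 to 20 kb. Most of the CD4 reads lay at the near end. From 3 to 6 kb into the gene there were 64 CD4 reads and 1 CD8 read, a ratio of 94.4 (16.4 to 3787). Beyond 6 kb there were 24 CD4 reads and 7 CD8 reads over 17 kb, and the library backgrounds would give 16.4 reads in CD4 cells, against 1.04 in CD8 cells. These last borders were chosen after the values were seen. Over the whole body the CD4 level was 0.851 times the input (0.631 to 1.15) and the CD8 level 0.0803 times (0.0336 to 0.166). The promoter ratio exceeded the body ratio 15.9 times (4.49 to 63.3), a figure that does not depend on library scaling. With 1 read kept per position it was 7.52 times (2.11 to 29.9), and with the narrower promoter and body 32.2 times (7.22 to 164).

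**Figure D3:**
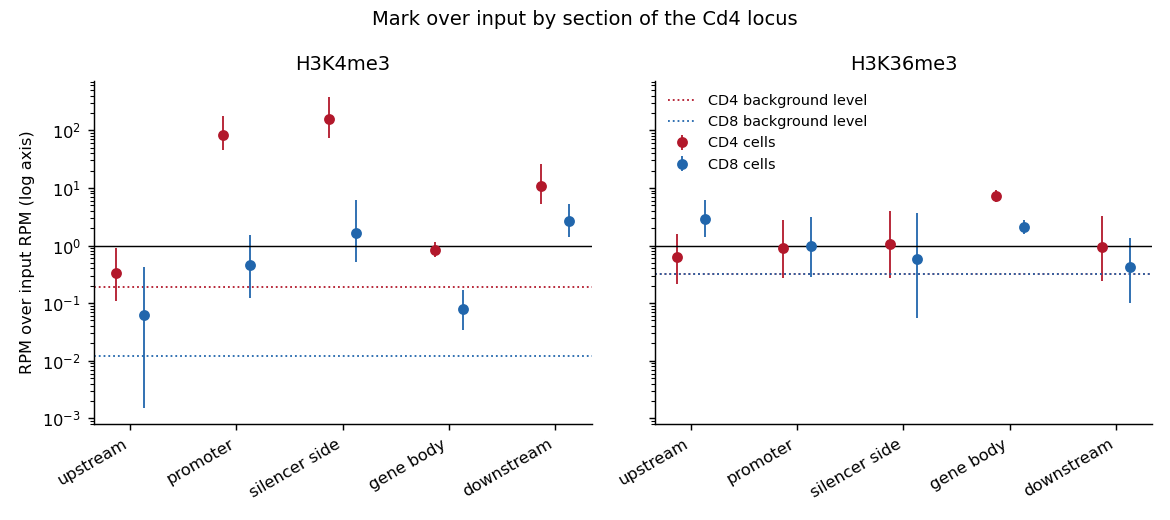
RPM over input RPM on a log axis for 5 sections of the locus, CD4 and CD8 side by side, with 95% counting intervals. Dotted lines give each library's background away from enriched regions. CD4 H3K4me3 lies 83.6-fold above input at the promoter and 154-fold on the silencer side, and H3K36me3 is above input in the gene body of both cell types.

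H3K36me3 lay further into the gene. The gene body held 468 CD4 reads and 116 CD8 reads, or 69.5 RPM in CD4 cells against 17.2 RPM in CD8 cells. The ratio was 4.19-fold (3.41 to 5.18). The CD4 body lay 7.22-fold above input (5.79 to 9.07) and the CD8 body 2.09-fold (1.56 to 2.81). Among 16081 tested windows of 20 kb, 1.57% were called higher in CD4 cells, against 0.497% in CD8 cells, and 11 had a ratio at or above that of the Cd4 body, counting Cd4 itself. In level, 0.652% of windows with reads had as many CD4 H3K36me3 reads, against 10.8% for the CD8 reads of the body.

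The promoter and silencer side carried little H3K36me3 in either cell type. The promoter had 6 CD4 reads and 6 CD8 reads, a ratio of 1.04 with an interval of 0.278 to 3.88. That ratio joins parts that leaned opposite ways. From 1 to 0.5 kb upstream there were 0 CD4 and 4 CD8 reads, within the upstream bin later called higher in CD8 cells. From 0.5 to 1 kb into the gene there were 4 CD4 reads and 1 CD8 read. The 2 kb bin from 0 to 2 kb had 9 CD4 and 2 CD8 reads, a ratio of 4.67 (0.967 to 44.4). The silencer side had 5 CD4 reads and 2 CD8 reads, a ratio of 2.60 (0.425 to 27.3). At this depth a difference of H3K36me3 was not detectable in either stretch taken as a whole. Per kb, the CD4 body exceeded the silencer side 9.36 times (3.98 to 29.0), and the CD8 body did so 5.80 times (1.57 to 48.5).

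In bins of 2 kb, 11 of the 16 bins of the locus could be tested for H3K36me3, with at least 20 reads and at least 2 times the input in either cell type. Of these, 8 were higher in CD4 cells, against 1.43% of 90717 tested bins in the genome. All 8 passed the filter in CD4 cells only, which favours that direction. In the genome 65879 of the tested bins were enriched in both cell types, so the genome share is not a like reference. With scaling to total reads the genome share was 1.15% for CD4 and 1.07% for CD8, and again 8 Cd4 bins were called. The enriched bins of CD4 cells joined into 1 run of 20000 bp, from 4 to 24 kb into the gene, and 8.18% of 21998 runs in that library were as wide or wider. In CD8 cells 2 separate bins were enriched, 1 of them in the body. Over the genome 6.39% of 2 kb bins with reads were enriched in CD4 cells, against 6.29% in CD8 cells.

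The CD4 signal was uneven along the body. Between 4 and 6 kb into the gene there were 21 CD4 reads and 8 CD8 reads, and from 6 to 8 kb 29 CD4 reads and 20 CD8 reads. The second of these had a ratio of 1.51 with an interval of 0.823 to 2.81, the smallest ratio in the body. It was the body bin that was enriched in CD8 cells. From 8 to 10 kb there were 65 CD4 reads and 14 CD8 reads, and from 10 to 12 kb 76 CD4 reads and 18 CD8 reads. The count fell to 27 CD4 reads at 12 to 14 kb, where CD8 cells had 7.

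The far part of the body had the largest ratios. From 18 to 20 kb there were 69 CD4 reads and 8 CD8 reads, an 8.96-fold difference (4.30 to 21.6). From 14 to 16 kb there were 66 CD4 reads and 10 CD8 reads, a 6.85-fold difference (3.50 to 15.0). From 20 to 22 kb there were 41 CD4 reads and 7 CD8 reads, a 6.08-fold difference (2.70 to 16.1). Between them, at 16 to 18 kb, 48 CD4 reads stood against 19 CD8 reads, a ratio of 2.62 (1.51 to 4.73). Most of the CD8 reads of that bin, 13, lay at 16.5 to 17 kb, where CD4 cells had 15. The signal ended near 23 kb, and from 24 to 26 kb each cell type had 1 read.

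Over the 40 bins of 500 bp in the body, CD4 reads numbered between 2 and 36 with a median of 9.5, and CD8 reads between 0 and 13 with a median of 3. RPM was higher in CD4 cells in 39 of the 40. These bins are neighbours in 1 gene and not replicates, so the count restates the ratio of the body. The share of such bins over the genome was not counted. The 3 bins with the most CD4 reads were spread along the body. They lay at 9 to 9.5 kb with 36 CD4 and 8 CD8 reads, at 15.5 to 16 kb with 31 CD4 and 1 CD8 reads, and at 19.5 to 20 kb with 30 CD4 and 3 CD8 reads. The median position of H3K36me3 reads in the locus was 14.2 kb into the gene for CD4 cells, against 10.2 kb for CD8 cells, a shift that includes the CD8 reads upstream of the promoter.

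**Figure D4:**
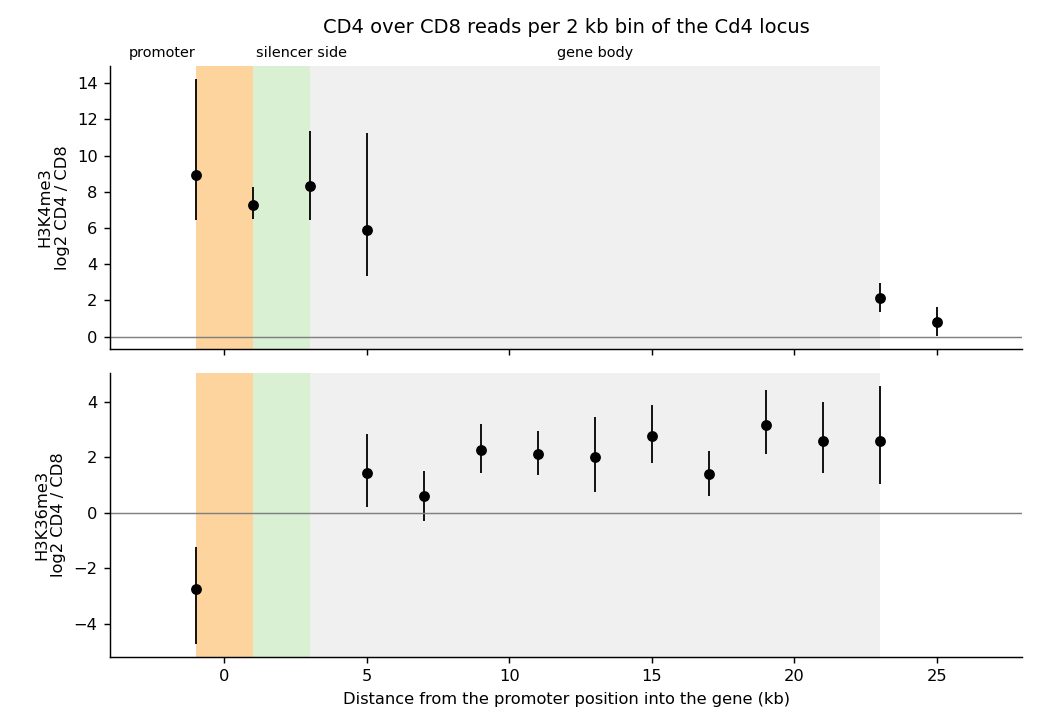
Log2 ratio of CD4 over CD8 reads, centred as in the text, per 2 kb bin with at least 20 reads of the mark in both cell types together (y axis), against distance into the gene in kb (x axis), with 95% counting intervals. H3K4me3 ratios lie above 5 from 2 kb upstream to 6 kb into the gene and between 0 and 3 at 22 to 26 kb, H3K36me3 ratios lie mostly between 1 and 3 in the body, and the single H3K36me3 ratio below 0 is the bin just upstream of the promoter.

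The body was above the H3K36me3 background in both cell types. For CD4 cells the library background would give 20.6 reads where 468 were found, 22.8 times as many (20.8 to 24.9). For CD8 cells it would give 18.1 reads where 116 were found, 6.42 times as many (5.30 to 7.70). These 2 intervals take the expected reads as known. They leave out the counting error of the 98 CD4 and 82 CD8 input reads behind them and are too narrow. The surroundings of the locus were also above it. The 10 kb beyond the upstream end had 21 CD4 reads where 8.60 were expected and 34 CD8 reads where 10.1 were expected. The 10 kb beyond the downstream end had 17 CD4 reads where 7.34 were expected and 13 CD8 reads where 6.39 were expected. Relative to input, the CD4 body exceeded the upstream flank 9.28 times (5.10 to 17.3) and the downstream flank 9.78 times (5.10 to 19.4). The CD8 body exceeded the upstream flank 1.91 times (1.09 to 3.36) and the downstream flank 3.14 times (1.48 to 7.00). The flanks were added after the values of the locus were seen. Side by side, the CD4 over CD8 ratio was 260.3 (111 to 804) for H3K4me3 at the promoter and 4.19 (3.41 to 5.18) for H3K36me3 in the body. With 1 read kept per position these were 93.5 (39.7 to 289) and 3.82 (3.11 to 4.74).

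One bin of the locus went the other way. The 2 kb just upstream of the promoter position, chr6:124838001-124840000, had 4 CD4 and 28 CD8 reads of H3K36me3, a ratio of 0.148 (0.0378 to 0.424). It was the only bin of the locus called higher in CD8 cells, a call made in 0.837% of tested bins in the genome. The bin passed the filter in CD8 cells only, which favours that direction. The CD8 level was 4.13 times the input there. The 28 reads lay at 27 distinct positions, and 17 of them lay 1 to 1.5 kb upstream, where CD4 cells had 1 read. In the upstream section, 1 to 4 kb before the promoter position, CD4 cells had 7 reads and CD8 cells 25, a ratio of 0.291 (0.106 to 0.692). This section overlaps that bin and is not a second observation. Of its 25 CD8 reads, 23 lay 1 to 2 kb upstream. From 2 to 4 kb upstream there were 3 CD4 and 2 CD8 reads. The body ratio exceeded the ratio of the upstream section 14.3 times (5.84 to 40.2). H3K4me3 was low in the upstream section in both cell types, with 6 CD4 reads and 1 CD8 read.

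The intervals of the input ratios included 1 in all 5 sections. The body held 98 CD4 and 82 CD8 input reads, a ratio of 1.17 (0.865 to 1.59). The promoter held 10 CD4 and 9 CD8 input reads, and the silencer side 7 CD4 and 5 CD8 input reads. The upstream section held 17 CD4 and 13 CD8 input reads. The downstream section ran the other way, with 8 CD4 and 14 CD8 input reads, a ratio of 0.560 (0.204 to 1.43). Such counts leave wide intervals on every value over input. In 1 of the 64 bins neither input had a read.

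The strong H3K4me3 difference was not shared by the surroundings of the gene. Within 60 kb of the promoter position, 7 regions outside Cd4 had bins enriched for H3K4me3 in either cell type, joined over gaps of 1 bin. In RefSeq (GRCm38.p6) the next protein-coding gene downstream of Cd4 is Gpr162, and the next upstream is Lag3, which encodes an inhibitory receptor that also binds MHC class II. The regions could not be assigned to these genes without mm9 coordinates. The nearest on the downstream side, 23.5 to 24.5 kb into the direction of transcription (chr6:124813501-124814500), had 75 CD4 reads and 35 CD8 reads, a 3.16-fold difference (2.09 to 4.87). Its outer bin, at 24 to 24.5 kb, had 20 CD4 reads and 18 CD8 reads, a ratio of 1.64 (0.823 to 3.29), and was the only tested H3K4me3 bin of the locus not called. The inner bin had 55 CD4 reads and 17 CD8 reads, a ratio of 4.77 (2.73 to 8.77). Of the 69 CD8 H3K4me3 reads in the locus, 45 lay in the 5 kb downstream section.

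Upstream, the nearest region lay 15.5 to 16.5 kb before the promoter position (chr6:124853501-124854500). It had 299 CD4 reads and 160 CD8 reads, a 2.76-fold difference (2.27 to 3.36). Further regions upstream had ratios of 2.26 (1.79 to 2.87), 1.86 (1.04 to 3.37) and 0.865 (0.752 to 0.993), the last at chr6:124880501-124882500. On the downstream side the remaining regions had ratios of 2.53 (1.26 to 5.29) and 1.05 (0.998 to 1.11). Scaling to total reads divides all of these by the same factor and turns the ratio of 1.05 below 1. The ratio of the main Cd4 region exceeded that of each of the 7 regions by between 66.5 times (33.2 to 140) and 244 times (142 to 456), whatever the scaling. With 1 read kept per position the range was 34.5 times (13.05 to 90.9) to 90.4 times (51.7 to 171).

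**Figure D5:**
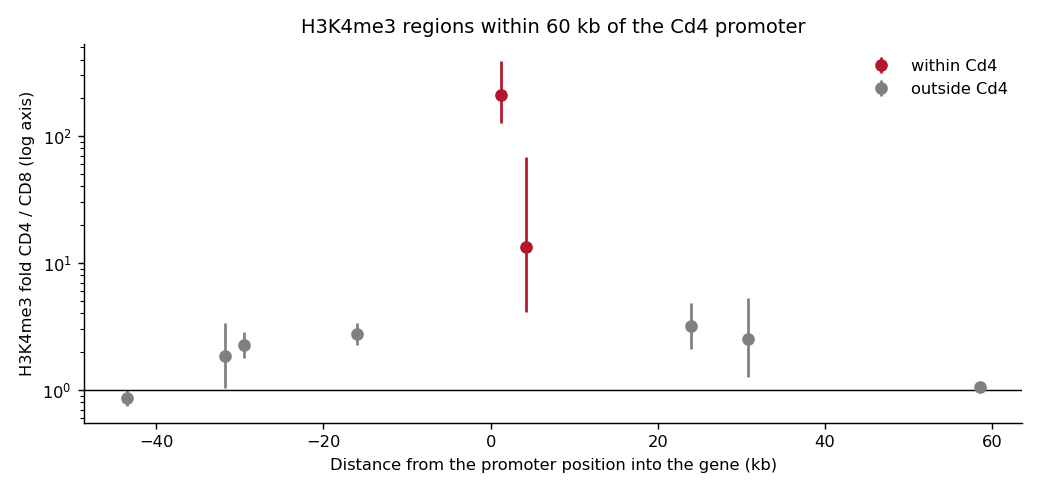
H3K4me3 fold of CD4 over CD8 reads on a log axis for each region of enriched bins within 60 kb, against distance into the gene from the promoter position in kb (negative values are upstream), with 95% counting intervals. The regions within Cd4 lie at 13.3 and 212 and those outside between 0.865 and 3.16. The point at 13.3 has 0 CD8 reads and uses the floor of 3 reads.

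The pattern over the 4 precipitated libraries was compared with that of other 10 kb windows by the Euclidean distance of log2 RPM, with 0.5 reads added. The window of the Cd4 promoter, chr6:124830001-124840000, held 2089 (CD4) and 17 (CD8) H3K4me3 reads and 71 (CD4) and 60 (CD8) H3K36me3 reads. The closest was chr3:60270001-60280000 at a distance of 1.40. It held 1129 (CD4) and 28 (CD8) H3K4me3 reads and 41 (CD4) and 70 (CD8) H3K36me3 reads. The next were chr2:43600001-43610000 at 1.55, chr6:3340001-3350000 at 1.72, chrX:54460001-54470000 at 1.82 and chr3:106590001-106600000 at 1.89. Each of the 5 had fewer CD4 H3K4me3 reads than the Cd4 window, between 1053 and 1855. The likeness rests on 4 values per window and on 10 kb of the gene, so it leaves out most of the H3K36me3 of the Cd4 body.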

How the data were processed

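The deposited files give start and end of each aligned read, 1 read of 33 bp per line with no strand, placed on mm9 according to the submitters' processing notes. The aligner and the duplicate handling were not given in the sources used here. Positions were read as 0-based starts and are printed 1-based. Only chromosomes 1 to 19, X and Y were used. Each read was counted where its midpoint fell, and RPM is the count scaled to the library's total on these chromosomes.

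Section borders are round distances from the promoter position, not annotated exons. Ratios between cell types carry exact (Clopper-Pearson, conditional on the sum) 95% intervals, and double ratios exact conditional odds ratios. A count of 0 was set to a floor of 3 reads, while lower counts above 0 were kept. A fold at the floor can therefore lie below a fold from fewer than 3 reads, and such folds do not rank against each other. Background was measured in windows of 2 kb with no window above 9 reads of either mark inside 10 kb. Named bins were those with the most reads and the extreme bounds of the ratio. The gene, sections and rules were chosen with earlier results of these data known. The call rule was tested on simulated independent Poisson counts. Those leave out the repeated read positions of the H3K4me3 libraries, so that test does not give the error rate of the calls here. The other genes listed for comparison were not placed and are not reported. Tools were SciPy 1.17.1, NumPy 2.4.6 and pandas 2.3.3 under Python 3.11.15.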

Additional observations from a re-analysis of the deposited data

Results flagged for a closer look

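H3K4me3 at the Cd4 promoter lay on opposite sides of the input in the 2 cell types, at 83.6 times the input in CD4 cells and 0.458 times in CD8 cells. Below the input did not mean below background. The background of the CD8 library would give 0.131 reads in this section, where 5 were found. The CD8 value lay above the input with 1 read kept per position, at 1.42 times (0.374 to 4.72), and within 500 bp of the promoter position, at 1.098 times (0.186 to 7.50), so both cell types were then on the same side. H3K36me3 in the upstream section lay on opposite sides in the other direction, at 0.622 times the input in CD4 cells and 2.84 times in CD8 cells. Of the 25 CD8 reads of that section, 23 lay 1 to 2 kb upstream of the promoter position. With 1 library per group neither difference was tested against replicates. The intervals of the CD8 promoter value (0.120 to 1.52) and of the CD4 upstream value (0.218 to 1.58) include 1.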

How the results depend on the processing

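No paired analysis was possible because each group is 1 library and the labels carry no replicate number. Of 84 values under alternatives, 8 of them added after the data were seen, 64 kept within the counting interval (counts within 1.5 times), 19 moved and 1 reversed. The reversed value was the CD4 H3K4me3 per kb of the silencer side over the promoter, log2 0.37, which was -0.28 with the narrower promoter. With 1 read per position, log2 CD4 over CD8 of H3K4me3 was 6.55 at the promoter (main 8.02) and 5.90 on the silencer side (7.39), and genome bins higher in CD4 numbered 8509 (13792). The body from 5 to 20 kb gave 2.88 for H3K4me3 (4.02). For H3K36me3, genome bins higher in CD4 numbered 666 at 3-fold, 554 at 50 reads and 628 in 10 kb bins (1296), and Cd4 bins 4 of 4 tested at 50 reads and 2 of 3 in 10 kb bins (8 of 11). Stricter thresholds and wider bins lower counts by construction, and the cause of the others was not tested. The CD4 promoter over input, log2 6.39, was 7.28 within 500 bp. The CD8 promoter over input, log2 -1.13, turned to 0.51 with 1 read per position and 0.13 within 500 bp, inside its interval. The ratio of the main Cd4 region over the farthest of the 7 regions, log2 7.93, was 6.50 with 1 read per position. The other 9 moved values were counts higher in CD8. Among them the H3K36me3 bin upstream of the promoter was not tested at 50 reads and merged into a 10 kb bin that was not called. Input depth, at most 10 reads per library in the promoter or silencer side, limits values over input.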
